A study of Mus musculus with 3 samples.

Results

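The guanylate-binding proteins (GBPs) and the immunity-related GTPases (IRGs) were followed through the leukocytes of 4T1 mammary tumors. The members were 8 of the 32285 genes counted: the GBP genes Gbp2, Gbp3, Gbp4, Gbp5 and Gbp7, and the IRG genes Iigp1, Igtp and Irgm1. They were chosen by symbol. All 8 were detected. Droplet single-cell RNA sequencing was done on CD45+ cells sorted from tumors of female BALB/c mice aged 6 to 8 weeks, collected 14 days after 4T1 cells, a mouse triple-negative breast cancer line, were placed in the mammary fat pad. The vehicle group carried 4T1-luc tumors and was gavaged with vehicle for 10 days from day 4. The p38i group carried the same tumors and was gavaged over the same days with 30 mg/kg of the p38α/β inhibitor LY2228820 (ralimetinib). The p38KO group carried tumors of p38a-KO-H9, a 4T1-luc clone without p38α, and its treatment is not given in the labels. In p38KO tumors the deletion lay in the tumor cells only, so the leukocytes kept their own Mapk14, and its level does not check the label. Each group was 1 library pooled from 3 tumors. There were no replicate libraries, so no test between groups was possible, and all intervals below cover counting error only. The knockout also rests on 1 clone, and its effect, any difference in gavage and the clone's own history cannot be told apart.

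GBPs and IRGs are large GTPases that interferons induce in most cell types. They assemble on membranes that enclose pathogens, such as the vacuole of Toxoplasma, and GBPs also gather on cytosolic bacteria and promote inflammasome activation. In the mouse, Iigp1 loads onto vacuoles as an effector, while Irgm1 and Igtp sit on host membranes and keep effectors inactive there. Interferon-γ acts on GAS sites and type I interferon mainly on ISRE sites, so this family is a reader of both signals.

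The letters of those sites were searched in the 250 bases before each RefSeq transcription start (GRCm38.p6), on both strands. They were TTCNNNGAA for GAS and, for ISRE, GAAA and GAAA set apart by 2 bases of any kind. A match of one could overlap a match of the other in part. Promoters of 6 members were matched. All 6 genes held the ISRE letters, against 2.98% of the 32851 promoters in the table, and 3 of 6 held the GAS letters, against 7.02%. A second start of Gbp3 held neither. The stretches of 30 bases are shown because they let the members be compared at the sites through which interferon is known to act. Capitals mark the matched letters, and each stretch is read along the strand of its gene. Position is counted in bases before the start.
Gbp2 (chr3:142620594-142620623, + strand, at 59, in an untranslated exon in GENCODE M21): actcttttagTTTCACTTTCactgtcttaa
Gbp3 (chr3:142559992-142560021, + strand, at 45, before the gene; overlapping matches): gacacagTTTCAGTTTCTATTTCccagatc
Gbp5 (chr3:142496759-142496788, + strand, at 165, in an intron in GENCODE M21): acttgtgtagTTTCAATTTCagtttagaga
Gbp7 (chr3:142530273-142530302, + strand, at 53, before the gene): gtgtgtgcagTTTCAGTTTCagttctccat
Igtp (chr11:58199506-58199535, + strand, from 45, before the gene; GAS, then ISRE): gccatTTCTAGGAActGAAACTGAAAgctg
Irgm1 (chr11:48871428-48871457, - strand, at 30, in an exon of an annotated Irgm1 transcript; overlapping matches): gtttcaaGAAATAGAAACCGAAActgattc
Gbp5 also held GAS matches at 245 and 52, of which the nearer is shown, in an untranslated exon (chr3:142496871-142496900): ctggccgttatTTCTCAGAAccaagcacag
Gbp7 held GAS matches at 106 and 87, of which the nearer is shown and has the same letters as that of Gbp5 (chr3:142530238-142530267): aaagcagaagcTTCTCAGAAagtcagcaca
Of the other family genes that were measured, 5 were matched, of which 4 held the ISRE letters and 3 the GAS letters. A match is a description of the letters and not a site shown to be bound.

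The genes lie in clusters. In GENCODE M21 (GRCm38), Gbp5 (chr3:142493978-142522344), Gbp7 (chr3:142530342-142550149), Gbp3 (chr3:142560026-142573209) and Gbp2 (chr3:142620602-142638008) follow each other on the + strand. Gbp4 (chr5:105115767-105139586, - strand) overlaps Gbp8 and Gbp9 on the same strand, and Igtp (chr11:58199556-58207591, + strand) overlaps Irgm2 on the same strand. Irgm1 lies at chr11:48861968-48871683 on the - strand. Reads assigned to both a member and such a neighbour are left out of the counts, so those of Gbp4 and Igtp are uncertain to that extent. Over the last 500 bases of the longest coding transcript, where 3′ libraries place their reads, 0% to 4.31% of stretches of 60 bases were also found in a transcript of another gene, with Gbp4 highest through Gbp6.

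With 21675352 to 25997636 UMIs (tagged transcript counts) per library, 12472 cells passed the filters, and 9476 of these fell into 1 of 6 gates set on raw counts. The neutrophil gate used Csf3r and Cxcr2 and held 1719, 2026 and 1479 cells in the vehicle, p38i and p38KO libraries, in that order here and below. The monocyte gate (Ly6c2, Fn1) held 348, 624 and 285 cells, the macrophage gate (C1qa) 153, 168 and 457, the T cell gate (Cd3e) 537, 631 and 508, the NK gate (Ncr1) 116, 112 and 131, and the dendritic gate (Flt3) 37, 73 and 72. At least 7 of 8 markers of each gate were highest in their own gate in every library, and 8 or 9 of 9 for dendritic cells. Any 2 libraries shared 5 to 9 barcodes. Markers of other cells were not absent. Mast cell and basophil markers summed to 43.2, 37.2 and 1426 CPM (counts per 1000000 UMIs of the gate) in the NK gate, and epithelial markers to 16.9, 9.71 and 163 CPM in the neutrophil gate and 42.3, 56.5 and 245 CPM in the monocyte gate. S100a8, a neutrophil transcript, stood at 0.909%, 2.12% and 1.78% of its neutrophil level in the monocyte gate, at 0.388%, 0.711% and 0.419% in the T cell gate, and at 0.105% to 0.408% in the other gates.

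Relative to the UMIs of each gate, neutrophils carried the most transcripts of the family. The 8 members summed to 1721, 1339 and 2335 CPM in neutrophils, 1170, 1072 and 1196 in monocytes, 898, 1086 and 795 in macrophages, 856, 1000.2 and 916 in T cells, 450, 500 and 497 in NK cells, and 483, 681 and 340 in the dendritic gate. Neutrophils came first in every library with no overlap of intervals. At 1500 UMIs per cell, to which every cell was thinned so that depth was equal, 64.6%, 61.4% and 70.5% of neutrophils held at least 1 UMI of a member, and 14.5%, 8.74% and 21.6% held UMIs of 4 or more members. Without thinning, the share with at least 1 UMI was 74.2%, 71.7% and 76.5%. After thinning this share was highest in neutrophils in the vehicle and p38KO libraries. The intervals overlapped those of monocytes in both, and those of macrophages and T cells in vehicle. In p38i, T cells (64.5%), macrophages (63.7%) and monocytes (61.9%) stood above neutrophils, all with overlapping intervals. Without thinning, macrophages were at 90.8%, 91.1% and 91.2%, above neutrophils in every library. Macrophages held more UMIs per cell, with medians of 12344 to 16456 against 2162 to 2515 in neutrophils.

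The sum hid a division of the family by cell type. Gbp2 was highest in neutrophils, at 506, 392 and 633 CPM, and next in monocytes, at 232, 200.1 and 220 CPM, so that neutrophils stood 2.18, 1.96 and 2.88 times above them. It was at 71.4 to 101 CPM in macrophages, 64.0 to 69.0 in T cells, 25.1 to 44.2 in NK cells and 10.3 to 27.5 in the dendritic gate, where NK cells and the dendritic gate overlapped, and in p38KO macrophages and T cells did too. Gbp5, a GBP known for promoting NLRP3 inflammasome assembly, had the same order at its top: 171, 111 and 313 CPM in neutrophils and 68.8, 70.8 and 75.0 in monocytes. In the other gates Gbp5 was at 12.3 to 39.0 CPM with overlapping intervals. Gbp7 was highest in neutrophils too, at 317, 271 and 399 CPM. T cells, monocytes and macrophages followed at 189 to 239 CPM, and their intervals overlapped except for monocytes (231 CPM) and macrophages (195 CPM) in p38KO.

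Gbp4 ran the other way. It was highest in monocytes (241, 195 and 183 CPM) and T cells (198, 195 and 195), which overlapped in the p38i and p38KO libraries, and stood at only 35.4, 19.6 and 52.0 CPM in neutrophils. NK cells, at 148, 139 and 127 CPM of Gbp4, lay above neutrophils in every library. Gbp3 was highest in monocytes in the vehicle and p38i libraries, at 96.1 and 88.6 CPM (the latter overlapped macrophages, at 76.2 CPM), whereas in the p38KO library neutrophils and monocytes stood level at 105 CPM each.

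Among the IRGs, Iigp1 was mainly a transcript of macrophages, the dendritic gate and T cells, and macrophages and the dendritic gate overlapped in the vehicle and p38i libraries. It reached 218, 294 and 177 CPM in macrophages, 179, 279 and 90.8 in the dendritic gate and 76.8, 124 and 105 in T cells. Monocytes had 56.3, 28.2 and 47.3 CPM of Iigp1, and neutrophils 5.06, 4.34 and 6.43. After thinning, 18.3%, 24.4% and 19.9% of macrophages had an Iigp1 UMI and 0.524%, 0.197% and 0.947% of neutrophils did. The unthinned shares were 49.7%, 56.5% and 53.0% of macrophages and 0.873%, 0.296% and 1.56% of neutrophils. In NK cells of the vehicle library no Iigp1 UMI was counted among 718437, which allows up to 5.13 CPM at the upper end of the interval. Igtp, a regulator, was highest in neutrophils at 323, 255 and 395 CPM and then in T cells at 162, 221 and 189. Monocytes followed for Igtp at 143, 143 and 159 CPM, and overlapped T cells in the vehicle and p38KO libraries. Irgm1, also a regulator, was at 307, 237 and 433 CPM in neutrophils and 125, 134 and 175 in monocytes.

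**Figure D1:**
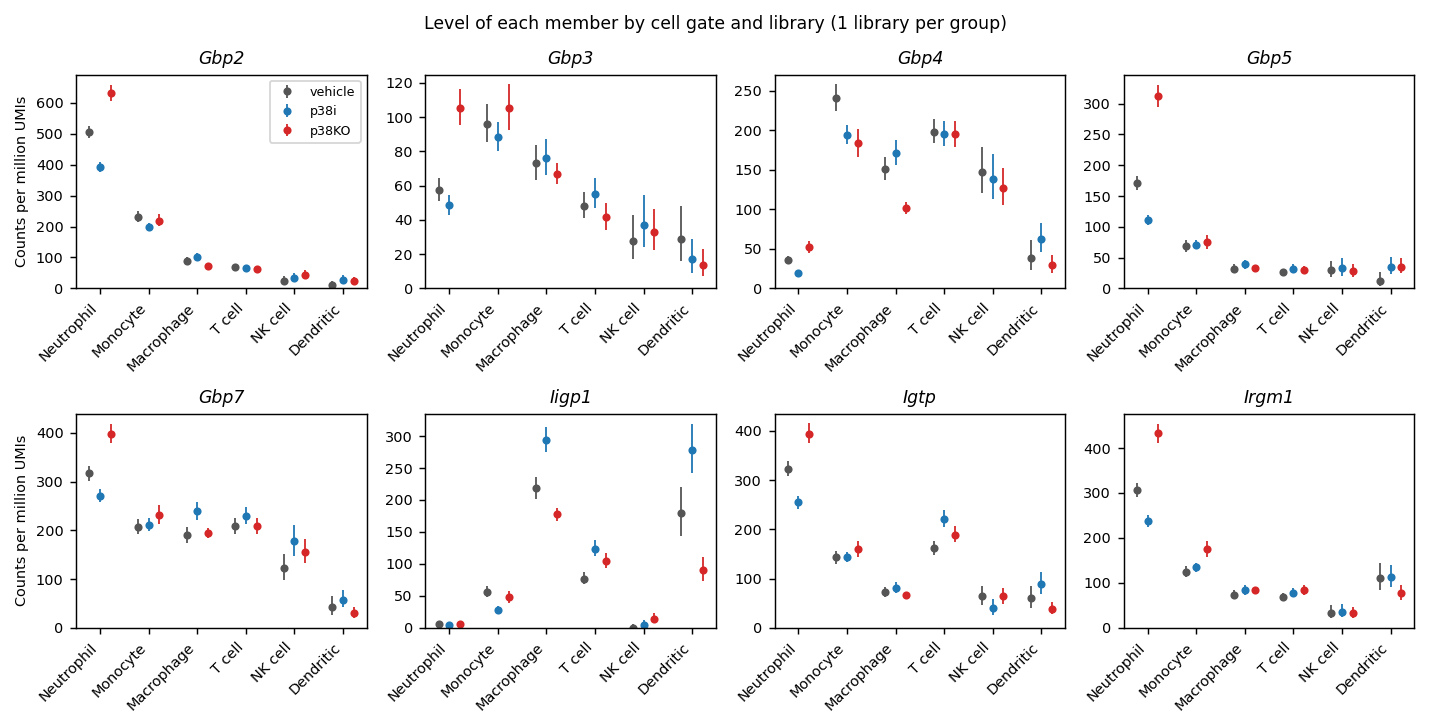
Level of each member in counts per 1000000 UMIs (y axis, linear, own scale per panel) by gate (x axis) in the vehicle, p38i and p38KO libraries; bars are exact 95% Poisson intervals of 1 library. Gbp2, Gbp5, Gbp7, Igtp and Irgm1 are highest in neutrophils, Gbp4 in monocytes and T cells, and Iigp1 in macrophages. The dendritic gate comes next for Iigp1 in the vehicle and p38i libraries only.

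In neutrophils the groups lay on opposite sides of vehicle. A member was called where its log2 ratio to vehicle was at least 0.5 either way, the 95% interval left out 0 and both libraries together held at least 20 counts. In p38i neutrophils 0 of 8 members were called higher, where 6.51% of all 8584 genes with enough counts were, and 2 of 8 were called lower, where 3.2% were. All 8 ratios were below 0, with a median of -0.35 beside 0.08 over all genes. In p38KO neutrophils 3 of 8 were called higher (9.65% of all genes) and 0 of 8 lower (3.06%). All 8 ratios were above 0, with a median of 0.42 beside 0.09 over all genes. These comparisons share the vehicle library.

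Gbp5 was called in both, on opposite sides of vehicle. Its 171 CPM in vehicle neutrophils compared with 111 in p38i, a log2 ratio of -0.62 (95% interval -0.77 to -0.47), and with 313 in p38KO, a log2 ratio of 0.87 (0.75 to 1.00). The intervals of the 3 levels did not overlap. After thinning, 14.8%, 9.97% and 22.0% of neutrophils had a Gbp5 UMI, and without thinning 20.1%, 14.8% and 27.1% did. Gbp3 was at 57.4, 48.6 and 105 CPM, so that p38KO stood apart with a log2 ratio of 0.88 (0.65 to 1.10) while p38i gave -0.24 (-0.48 to -0.00) and was not called. Gbp4 was lower in p38i, with a log2 ratio of -0.85 (-1.21 to -0.51), and higher in p38KO, with 0.55 (0.25 to 0.85), from low levels. Its p38i value was -0.38 and no longer called with stricter gates. Those gates allowed no UMI of other gates' myeloid genes where 1 had been allowed. They also lowered the myeloid gates' own minimum from 2 UMIs to 1, so they were stricter in the first respect only. The p38KO value of Gbp4 was 0.48 and no longer called once S100a8 and S100a9 were left out of the totals. Those 2 genes took 17.96%, 20.4% and 13.9% of neutrophil UMIs.

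The remaining members differed less than the limit in neutrophils. For Gbp2 the ratios were -0.37 (-0.45 to -0.29) with p38i and 0.32 (0.24 to 0.40) with p38KO. Igtp gave -0.34 and 0.29, Gbp7 -0.22 and 0.33, and Irgm1 -0.37 and 0.50, the last value just under the limit. All of these intervals left out 0. Iigp1, with 24 to 26 counts per library, gave -0.22 and 0.35, and both intervals held 0. With equal weight per cell these values were -0.95 and 0.87 and were called. For all 8 members summed, the ratio was -0.36 (-0.41 to -0.32) with p38i and 0.44 (0.40 to 0.48) with p38KO. Both sums were under the limit and were not called. Set directly against each other, p38KO neutrophils stood 1.74 times above p38i neutrophils, a log2 ratio of 0.80 (0.76 to 0.85). Leaving out cells with mast cell or epithelial transcripts, which were 0.407%, 0.444% and 1.56% of the gate, kept these calls and raised Irgm1 in p38KO to 0.51, past the limit. Median mitochondrial shares were 0.319%, 0.383% and 0.504% in the neutrophil gate. With cells of at most 5% mitochondrial counts the summed ratios were -0.35 and 0.45, the calls above were the same, and Irgm1 in p38KO, at 0.505, was called as well.

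In monocytes, macrophages, T cells and NK cells at most 1 member was called in either group. In monocytes 0 of 8 were called higher in p38i (4.66% of all genes) and 1 of 8 lower (2.73%). That member was Iigp1, at 56.3 CPM in vehicle and 28.2 in p38i, with a log2 ratio of -0.997 (-1.33 to -0.67). In p38KO monocytes 0 of 8 were called higher (8.19%) and 0 lower (2.34%). Gbp4 was at 241 CPM in vehicle monocytes and gave -0.31 in p38i and -0.39 in p38KO, with intervals without 0. Irgm1 in p38KO monocytes, at 0.49 (0.28 to 0.69), lay just under the limit. It passed with equal weight per cell (0.63), with thinning (1.12), without the 2% deepest cells (0.56) and without the 3.51% of cells that held mast cell or epithelial transcripts (0.54). It stayed without a call with median-ratio scaling, stricter gates, no cell filter and at most 5% mitochondrial counts. The same held with S100a8 and S100a9 left out of the totals. In macrophages 0 of 8 members were called in p38i, against 2.63% of genes higher and 3.74% lower, although all 8 ratios were above 0, led by Iigp1 at 0.43 (0.28 to 0.58) and Gbp7 at 0.33 (0.17 to 0.50). In p38KO macrophages 0 of 8 were called higher (7.8%) and 1 of 8 lower (3.5%). That was Gbp4, at 151 CPM in vehicle and 102 in p38KO, with a log2 ratio of -0.57 (-0.75 to -0.39) that came to -0.45 with stricter gates and to -0.09 with thinning, and lost its call in both.

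In T cells 1 of 8 members was called higher in p38i (4.93% of all genes) and 0 lower (2.42%). It was Iigp1, with a log2 ratio of 0.69 (0.46 to 0.93), followed by Igtp at 0.45 (0.28 to 0.62), which was not called. Neutrophil markers summed to 846, 1608 and 742 CPM in this gate, and Iigp1 was at 4.34 to 6.43 CPM in neutrophils. The part of RNA from neutrophils or other cells in the Iigp1 result was not tested. In p38KO T cells 0 of 8 were called higher (7.84%) and 0 lower (3.39%). In NK cells 7 members had enough counts. Of these, 1 was called higher in p38i (3.07%), Gbp7 at 0.54 (0.13 to 0.95), and 0 lower (5.79%), and in p38KO 0 were called higher (4.84%) and 0 lower (6.55%). The Gbp7 value fell to 0.05 when cells were thinned to equal depth.

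The dendritic gate held few cells and gave unstable values. There 2 of 8 members were called higher in p38i (5.39%) and 0 lower (3.64%), and 1 was called higher in p38KO (5.77%) and 1 lower (3.9%). Gbp5 was higher in both, at 12.3, 35.3 and 35.2 CPM, on 6, 27 and 36 counts, but the calls depended on the processing. The p38i ratio of 1.52 was 0.49 with equal weight per cell and 0.02 after thinning, and the p38KO ratio of 1.51 was 0.62 after thinning, on too few counts. Iigp1 was higher in p38i, at 0.64 (0.27 to 1.02), and lower in p38KO, at -0.98 (-1.42 to -0.54). With stricter gates the p38i value of Iigp1 turned to -0.56, and with thinning the p38KO value turned to 0.78 on too few counts for a call. The gate mixed cell types: Siglech, a gene of plasmacytoid dendritic cells, was at 714, 740 and 735 CPM, and Ccr7, which marks mature dendritic cells, at 18.5, 120.4 and 174 CPM. The part of this mix in the result was not tested.

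**Figure D2:**
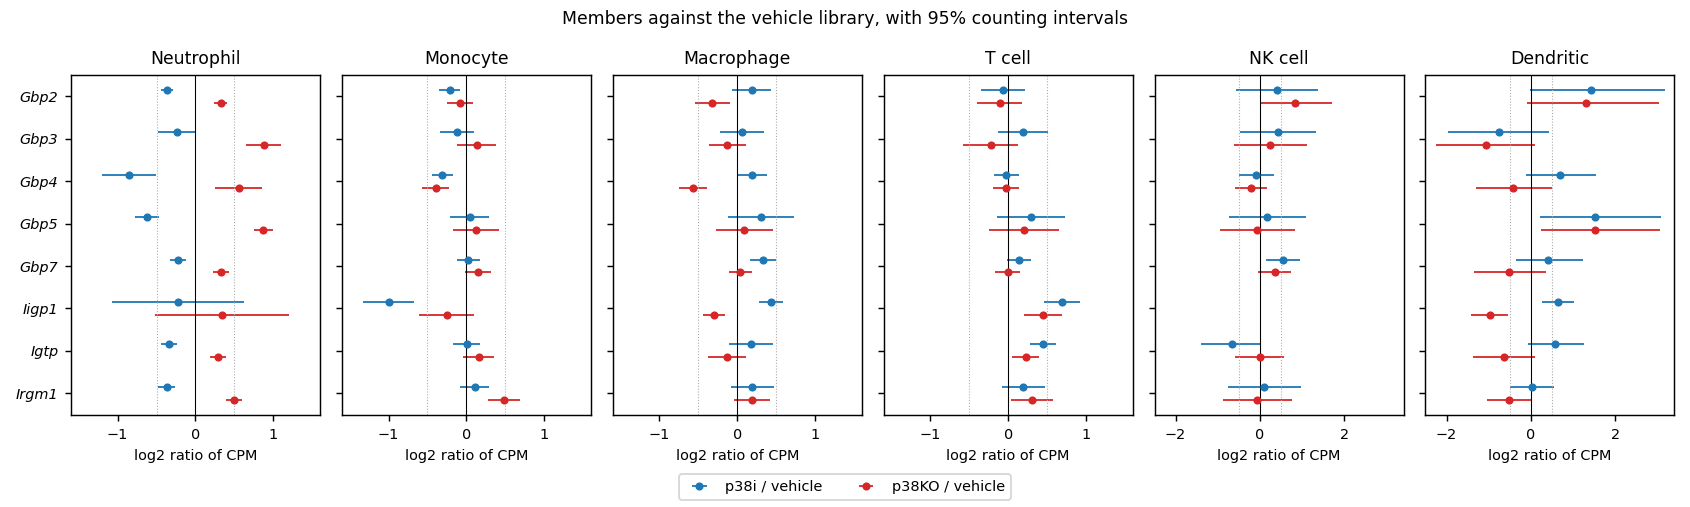
Log2 ratio of counts per 1000000 UMIs to the vehicle library (x axis, range differs for NK and dendritic gates) for each member (y axis) in 6 gates, for p38i and p38KO; bars are exact 95% counting intervals, dotted lines mark ±0.5, and members with under 20 counts are left out. In neutrophils every p38i point lies below 0 and every p38KO point above it, a division seen in no other gate.

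Cells were then split by 4 type I interferon-stimulated genes, Ifit1, Ifit3, Rsad2 and Isg15, none of them a member. After thinning, 51.8% (49.4% to 54.2%) of vehicle neutrophils, 36.3% (34.2% to 38.4%) of p38i neutrophils and 62.1% (59.6% to 64.6%) of p38KO neutrophils held at least 2 UMIs of these genes. In monocytes the shares were 21.8%, 15.4% and 33.3%, and in macrophages, T cells, NK cells and the dendritic gate they were between 0.893% and 10.7%. In neutrophils, monocytes and T cells, those with these transcripts held more of the family. Per 10000 UMIs, the 8 members summed to 27.0, 23.7 and 33.7 in neutrophils with them and 9.29, 8.77 and 8.79 in neutrophils without, a ratio of 2.91, 2.70 and 3.83 within each library. Monocytes gave 2.42, 2.31 and 2.35, and T cells 3.64, 2.52 and 3.13. Within neutrophils the ratio was widest for Gbp5, at 5.56, 5.09 and 7.60. In vehicle T cells it reached 7.90 for Gbp2, on 26 and 42 counts.

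The groups were then compared on each side of the split in neutrophils. Among cells with these transcripts p38i gave a log2 ratio of the sum of -0.19 (-0.26 to -0.11) and p38KO one of 0.32 (0.26 to 0.38), while Gbp3 at 0.82 and Gbp5 at 0.67 were called higher in p38KO and Gbp4, at -1.06, was called lower in p38i. Among neutrophils without them the sum gave -0.08 (-0.19 to 0.03) and -0.08 (-0.22 to 0.05), and no member was called in either group, though Gbp4 in p38i was at -0.90 on 15 counts against 18. On that side the 8 members held only 1155, 1698 and 738 counts, against 3604, 2613 and 4640 in neutrophils with the transcripts. Calls are harder to reach on fewer counts. For calls within the split, here and in monocytes, the share of all genes called was not taken. The 2 sides were not tested against each other. Over the whole gate the thinned sum was 18.5, 14.2 and 24.2 per 10000 UMIs. With the share of cells with these transcripts held at that of vehicle, the sum would have been 16.5 in p38i and 21.7 in p38KO. These values carry no interval. The split sets only a lower limit, so cells with the transcripts could still differ in how much of them they held. How much of the difference from vehicle went with the interferon-stimulated transcripts was not tested. In monocytes the sum differed little on either side of the split, but Irgm1 was called higher in p38KO both with the transcripts, at 0.91 (0.18 to 1.68), and without, at 1.00 (0.32 to 1.69).

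**Figure D3:**
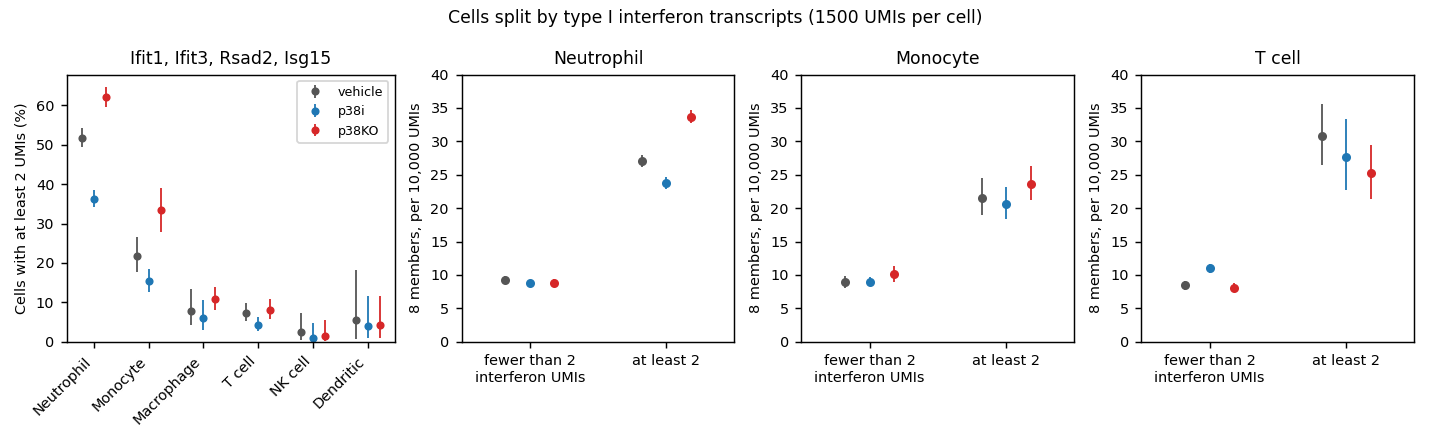
Left, share of cells (%) with at least 2 UMIs of Ifit1, Ifit3, Rsad2 and Isg15 by gate, with Clopper-Pearson 95% intervals; right, sum of the 8 members per 10000 UMIs in cells without and with these transcripts, with Poisson 95% intervals, in neutrophils, monocytes and T cells of each library. Neutrophils without the transcripts stand at 8.77 to 9.29 in all 3 libraries, and those with them at 23.7 to 33.7.

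T cells were divided by Cd4 and by Cd8a or Cd8b1. Iigp1 was higher in CD4 than in CD8 cells: it stood at 178, 155 and 91.5 CPM in cells with Cd4 alone and at 25.3, 26.4 and 15.2 CPM in cells with Cd8 alone, so that CD8 cells had 0.142, 0.170 and 0.165 times the CD4 level. Gbp4 was alike in both, at 182, 189 and 180 CPM in CD4 cells and 209, 187 and 203 in CD8 cells. Igtp was lower in CD8 cells in the vehicle and p38i libraries, at 0.595 and 0.553 times the CD4 level, while in p38KO the log2 ratio of -0.28 had an interval that held 0 (-0.62 to 0.05).

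The higher Iigp1 of p38i T cells was found in neither of these subsets. Against vehicle, Iigp1 gave 0.06 (-0.59 to 0.70) in CD8 cells and -0.20 (-0.58 to 0.18) in CD4 cells. It gave 1.28 (0.90 to 1.67) in the 124, 223 and 167 T cells that held neither or both transcripts, where its level was 114, 277 and 227 CPM. In those cells the sum of the 8 members was 1013, 1564 and 1244 CPM, with a log2 ratio of 0.63 (0.49 to 0.76) in p38i. Their median depth was 4338, 3087 and 3729 UMIs, and the part of missed Cd4 and Cd8 transcripts was not tested. In p38KO, CD4 cells had less Iigp1 than in vehicle, at -0.96 (-1.35 to -0.57), while the undivided remainder had more, at 0.99 (0.60 to 1.40). This remaining subset was chosen after its values were seen. Other members were called within the CD8 and CD4 subsets. In p38i Gbp2 was lower in CD8 cells, at -0.70 (-1.17 to -0.25), and higher in CD4 cells, at 0.69 (0.08 to 1.31). Irgm1 was lower in p38i CD8 cells, at -0.51 (-0.99 to -0.04). Gbp3 was lower in CD4 cells of p38i, at -0.75, and of p38KO, at -0.71. For calls within these subsets the share of all genes called was not taken. T cells with an Ifng UMI, which carry the transcript of the inducing cytokine, held less of the family than those without: 616 against 931 CPM in vehicle, 564 against 1141 in p38i and 583 against 994 in p38KO. Iigp1 was at 18.8 to 21.3 CPM in T cells with Ifng and 94.1 to 158 in those without. The split by Ifng used unthinned counts. Median depth was 6520, 5689.5 and 6253 UMIs in cells with Ifng and 4756, 3589 and 4446.5 in those without. The parts of depth and of the mix of CD4 and CD8 cells on each side were not tested.

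**Figure D4:**
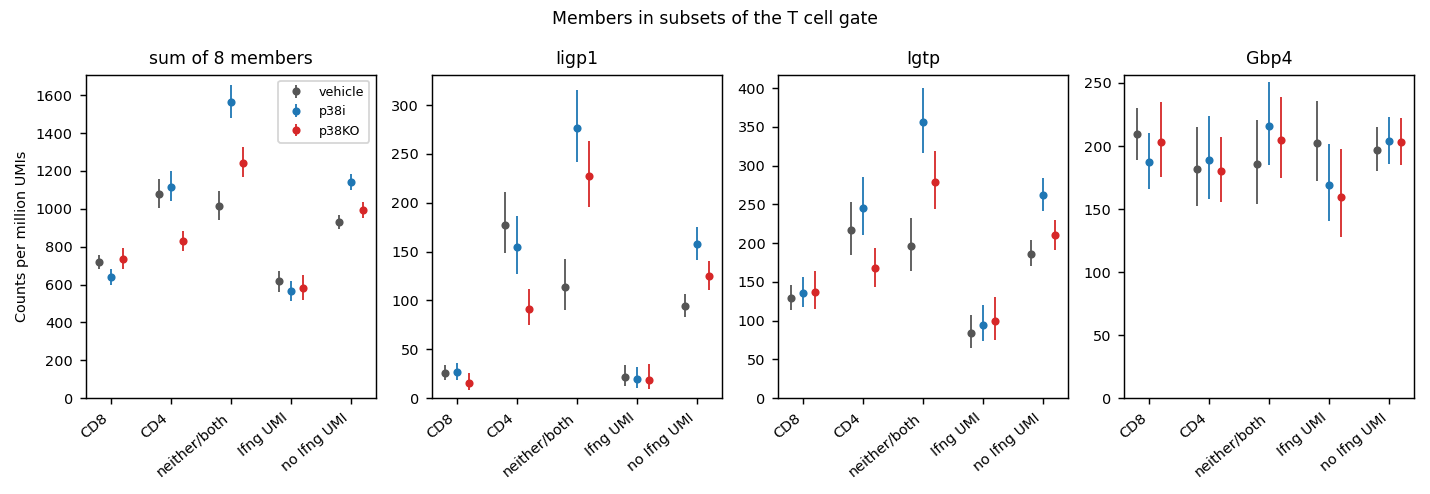
Counts per 1000000 UMIs (y axis, linear) of the 8 members summed, Iigp1, Igtp and Gbp4 in subsets of the T cell gate (x axis), by library, with exact 95% Poisson intervals. Iigp1 is low in CD8 cells of all 3 libraries and highest, at 277 CPM, in p38i cells with neither or both of the Cd4 and Cd8 transcripts.

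The other 13 family genes followed the members in part. In p38i neutrophils 0 of 8 with enough counts were called higher and 2 lower, with a median of -0.53; in p38KO neutrophils 1 was called higher and 0 lower, with a median of 0.33. Gbp2b was at 850, 662 and 1012 CPM in neutrophils and Ifi47, also known as Irg47, at 451, 313 and 636, with log2 ratios of -0.53 and 0.50, the latter just under the limit. Gm4070 was the other gene called lower in p38i neutrophils, at -0.84, and Gbp9 the one called higher in p38KO neutrophils, from 37.96 to 71.0 CPM. Irgm2, a regulator like Irgm1, was called higher in both groups in monocytes, at 19.4, 39.5 and 40.9 CPM, and in T cells, at 20.6, 32.5 and 31.8 CPM. Gbp2b in macrophages was at 204, 205 and 126 CPM, a log2 ratio of -0.69 in p38KO. Over all 6 gates 7 of 52 pairs of gene and gate were called higher and 7 lower in p38i, and 6 and 4 of 51 in p38KO. Per gate, 2.63% to 6.51% of all genes were called higher and 2.42% to 5.79% lower in p38i, and 4.84% to 9.65% and 2.34% to 6.55% in p38KO. Tgtp1 and Tgtp2 are near-identical copies, and their counts, like those of Gbp6, Gbp8, Gbp9 and Gbp10 beside Gbp4, are uncertain. So are those of Irgm2, which overlaps Igtp. Gbp10 stayed at or under 6.70 CPM and Gvin1 at or under 0.318 CPM in every gate. F830016B08Rik and Gm4951 were seen mainly in macrophages, at 15.8 to 22.6 and 68.9 to 93.0 CPM.

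Of the upstream pathway, Ifng was at 111, 138 and 110 CPM in T cells and 37.6, 28.6 and 94.5 in NK cells, and was called higher in p38KO NK cells, at 1.33, the gate that held mast cell markers. Ifnb1 was at most 2.13 CPM in any gate. The receptors Ifngr1, Ifngr2, Ifnar1 and Ifnar2 were not called in neutrophils, monocytes, macrophages or T cells in either group. In neutrophils the kinases Jak2 and Tyk2, the factor Stat2 and the inhibitor Socs1 were called higher in p38KO. Jak2 was at 60.9, 62.1 and 117 CPM, Tyk2 at 5.45, 5.72 and 10.5, Stat2 at 81.8, 77.9 and 137, and Socs1 at 126, 138 and 201. Irf1 stood at 658, 689 and 887 CPM there, Irf9 at 143, 131 and 180, and Socs3 at 1059, 860 and 1412, none of them called. Nlrc5 was called lower in p38i neutrophils, at -0.57. Jak1, Stat3, Irf8 and Ptpn2 were not called in neutrophils. In T cells Irf1 was called higher in both groups, at 84.8, 132 and 125 CPM, and Irf8 lower in p38KO, at -1.02. Over 6 gates 5 of 103 pairs were called higher and 7 lower in p38i, and 14 and 6 of 103 in p38KO, beside the same shares of all genes.

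By their medians, type I interferon-stimulated genes lay on the same side of vehicle as the members in neutrophils and monocytes, in both groups. In monocytes the medians of the members were smaller. In the other gates the sides were the same in part, and they were opposite in p38KO macrophages. In neutrophils 18 of 23 such genes were called lower in p38i (3.2% of all genes), with a median log2 ratio of -0.77. In p38KO 13 of 23 were called higher (9.65%), with 0.55. The medians of all genes were 0.08 and 0.09. Ifit3b was at 69.9 CPM in vehicle and 10.2 in p38i neutrophils, Ifit3 at 73.4 and 17.9, and Ifit1, which binds foreign RNA caps, at 464 and 132. In p38KO macrophages 21 of 23 were called higher (7.8% of all genes), with a median of 1.08. The members had a median of -0.13 there and all genes one of 0.04. Rsad2, the antiviral enzyme viperin, went from 53.1 to 142 CPM there, and Ifit2 from 16.1 to 52.5. In p38KO NK cells Rsad2 was at 112 CPM against 34.8. In monocytes 11 of 23 were lower in p38i (2.73% of all genes) and 12 higher in p38KO (8.19%). The medians were -0.46 and 0.57, beside -0.06 and 0.13 for the members and 0.04 and 0.08 for all genes. In p38KO T cells 8 of 19 were higher (7.84% of all genes), with a median of 0.48 beside 0.10 for the members and 0.11 for all genes. In p38i NK cells 5 of 10 were lower (5.79%), with a median of -0.96 beside 0.17 for the members. The p38i dendritic gate had 4 of 12 lower (3.64%), with -0.43 beside 0.61. For p38i T cells 3 of 19 were lower (2.42%), with -0.10 beside 0.19. In p38KO NK cells 4 of 14 were higher (4.84%), with 0.47 beside -0.01. These lists were compared by their counts and medians, and the difference between them was not tested.

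Of the interferon-γ targets in neutrophils, 3 of 20 were called higher and 1 lower in p38i, where 6.51% and 3.2% of all genes were. In p38KO 6 of 20 were higher and 1 lower, where 9.65% and 3.06% of all genes were. Their medians were -0.03 and 0.36. Cxcl9, the chemokine that draws CXCR3+ T cells, was at 22.6 CPM in vehicle and 70.8 in p38KO neutrophils but at 1294 in vehicle and 440 in p38KO macrophages. In p38i it was at 221 CPM in the dendritic gate against 92.5, and Serpina3g, a protease inhibitor, at 149 against 20.6. Cd74, the invariant chain of MHC class II, was at 64.0, 162 and 201 CPM in NK cells. Of the inflammasome and cell death genes, 0 of 9 were called in p38i neutrophils and 2 were higher in p38KO, with Nlrp3 at 206 CPM in vehicle and 306 in p38KO. Il1b was lower in p38i macrophages, at 725 and 301 CPM, and in p38i monocytes, at 1712 and 1081. It was lower in the p38KO dendritic gate, at 323 and 173, and higher in T cells of both groups, at 63.6, 116 and 104. Neutrophil markers in that gate were at 846, 1608 and 742 CPM, and their part in this result was not tested.

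**Figure D5:**
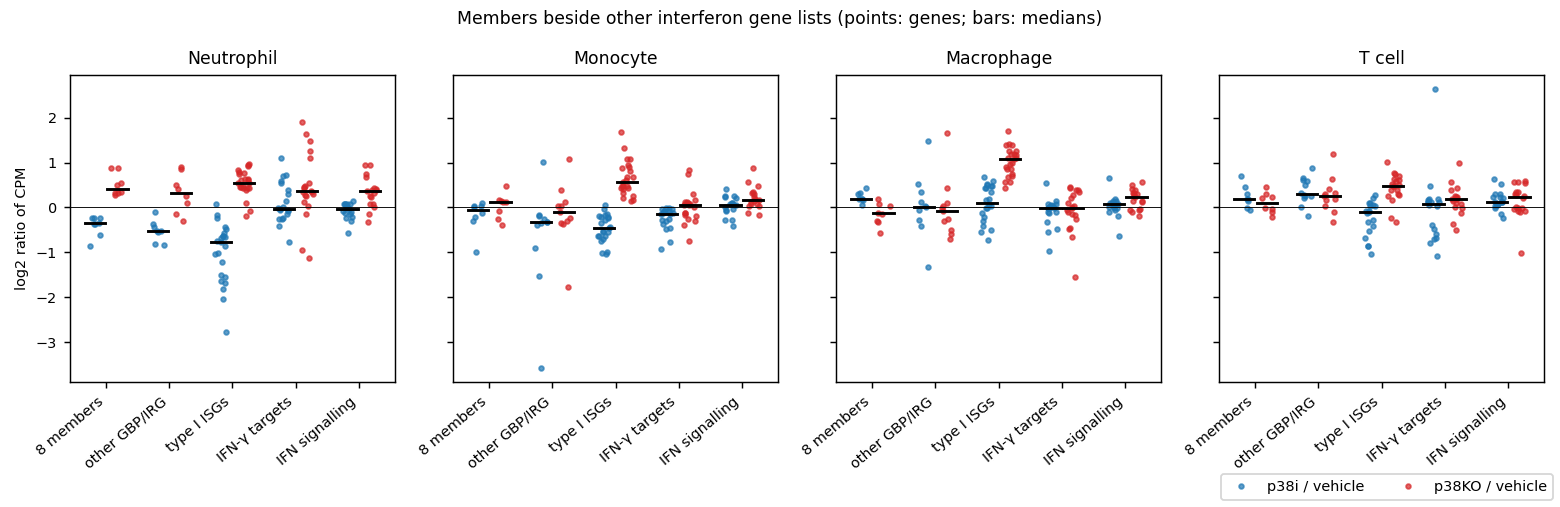
Log2 ratio of counts per 1000000 UMIs to the vehicle library (y axis) for the members and 4 other gene lists (x axis) in 4 gates; points are genes with at least 20 counts and bars are medians. In p38KO macrophages the type I genes have a median of 1.08 and the members one of -0.13.

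Over the 18 profiles of gate and library, the genes whose log2 level ran most like the sum of the members were, of 4975 compared, Fas (Pearson r = 0.92), Rgcc (0.92), Ets2 (0.90), Oas3 (0.90), Rtp4 (0.90), Cxcl3 (0.90), Ifitm2 (0.90), Gbp2b (0.89), Clec4e (0.89) and Ero1l (0.89). The profiles share libraries and gates, and neutrophils lie at the top of each, so the values describe the order of the cell types. Among the members Gbp2 and Gbp5 were most alike, at 0.91. Gbp4 had r between -0.47 and 0.42 with each of the others, and Iigp1 between -0.45 and 0.20.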

How the data were processed

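Gene by cell matrices of 3 droplet 3′ libraries were used. Per the file headers, the authors deposited UMI counts from Cell Ranger 6.0.0, which leaves out reads assigned to more than 1 gene. The submitters' notes name mm10, R 4.2.1 and Seurat 5. The values were not normalized, and the filter of the study was applied here: at least 1500 UMIs, at least 300 genes and at most 20% mitochondrial counts. Cells were gated on raw counts, with at least 2 UMIs for myeloid gates and 1 for the others, and low counts of the other gates' genes. The stricter gates allowed no UMI of other gates' myeloid genes where 1 had been allowed, and no Ly6c2 in the dendritic gate. They asked for only 1 UMI of a myeloid gate's own genes. Counts were summed within each gate of a library and divided by its UMIs to give CPM, with 95% intervals from the Poisson distribution. Log2 ratios carry exact conditional binomial 95% intervals, and 0.5 stands in for a count of 0. Shares of cells, with exact Clopper-Pearson intervals, were taken after thinning to 1500 UMIs (seed 1). Doublets were not called or removed. The members and lists, and the rule for naming genes (all members, all other family and signalling genes, and up to 3 called genes per remaining list and comparison with the largest ratios on at least 100 counts), were chosen with earlier results of these data known. Of the signalling genes, 1 is not reported here by name. Likeness used log2(CPM + 1) and genes with at least 50 CPM in a profile. The call rule was checked on simulated counts. Alternatives covered scaling, weighting, gates, filters, thinning, deep cells and call limits; those leaving out cells with mast cell or epithelial transcripts (at least 2 UMIs) and S100a8 and S100a9 were chosen after seeing the data. Promoter sequences are from RefSeq (GRCm38.p6). The tools were Python 3.11.15, numpy 2.4.6, scipy 1.17.1, pandas 2.3.3 and matplotlib 3.10.9. Libraries held 21675352, 25996832 and 25997636 UMIs, and the kept gates 486283 to 6914560, which set the width of the intervals. The labels and the study's methods differ on the number of sorted cells and the chemistry version, and neither changes the counts used here.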

Additional observations from a re-analysis of the deposited data

Results flagged for a closer look

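Gbp4, Gbp5 and Iigp1 were called in opposite directions in 2 gates under the same comparison, or in the same gate under p38i and p38KO. The differences between gates and between groups were not tested. Gbp5 was lower in p38i neutrophils, with a log2 ratio of -0.62, and higher in the p38i dendritic gate, at 1.52, while p38KO neutrophils gave 0.87. Gbp4 was lower in p38i neutrophils, at -0.85, higher in p38KO neutrophils, at 0.55, and lower in p38KO macrophages, at -0.57. Iigp1 in p38i was lower in monocytes, at -0.997, and higher in T cells, at 0.69, and in the dendritic gate, at 0.64, where p38KO gave -0.98. Several of these calls depended on the processing. Gbp5 in the p38i dendritic gate came to 0.02 with thinning, and stricter gates turned Iigp1 there to -0.56. Gbp4 lost its call in p38i neutrophils with stricter gates, in p38KO neutrophils with median-ratio scaling and in p38KO macrophages with thinning.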

How the results depend on the processing

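No paired analysis was possible because each group is 1 library. With 1 library per group no spread between animals can be had, and depth limits the NK and dendritic gates most. Of 162 values of the summed members, 153 kept their direction and call, as did 804 of 846 for single members. Every exception among the sums was in the dendritic gate. There p38i against vehicle reached a call with median-ratio scaling (0.53) and without the 2% deepest cells (0.52). The lower sum in p38KO lost its call with median-ratio scaling (-0.47), equal weight per cell (-0.26), at most 5% mitochondrial counts (-0.47), thinning (-0.47) and without cells with mast cell or epithelial transcripts (-0.46), and stricter gates turned it to 0.43 against vehicle and 0.23 against p38i. Iigp1 there turned to -0.56 in p38i with stricter gates and to 0.78 in p38KO with thinning. The cause was not tested. Over 6 gates, 4 of 47 member and gate pairs were called higher and 3 lower in p38i (per gate, 2.63% to 6.51% and 2.42% to 5.79% of all genes were), and 4 and 2 of 47 in p38KO (4.84% to 9.65% and 2.34% to 6.55%). Equal weight per cell gave 5 lower in p38i and 9 higher in p38KO, stricter gates 1 lower in p38KO, and thinning 2 higher in p38i and 0 lower in p38KO. At a log2 ratio of at least 1 the 4 counts were 1, 0, 1 and 0, by construction of a stricter limit. Median-ratio scaling left Gbp4 in p38KO neutrophils at 0.47, without a call. The alternatives that left out mast cell and epithelial cells, and S100a8 and S100a9, were chosen after seeing the data. Of 220 counts of called genes in the other lists, 170 stayed within 1.5 times.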

Other observations

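Kept cells that fell into no gate also held the family: the 8 members summed to 1230, 1082 and 1126 CPM in vehicle (910 cells), p38i (1159) and p38KO (927). Barcodes outside the cell filter gave 1503, 1510 and 1943 CPM. Each member had its own closest genes over the 18 profiles of gate and library, given as a description of cell type order only: Egln3 for Gbp2 (Pearson r = 0.97), Mir22hg for Gbp5 (0.96), Capg for Gbp4 (0.95), Nrp1 for Iigp1 (0.95) and Trim30b for Irgm1 (0.95).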
